A study of Mus musculus with 4 samples.

Results

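The genes described here encode the proteins of the cytosolic ribosome in mouse regulatory T cells (Tregs) that had reached an omental tumor or the spleen. Members were picked by symbol, as Rpl or Rps with a number and at most a short ending, together with Rplp0, Rplp1, Rplp2 and Rpsa. The set was chosen for description with earlier results of these data known. Kinases named Rps6k and entries with a pseudogene name (-ps) were left out. The rule found 84 of the 24421 genes in the count files. Of these, 43 encode large (60S) subunit proteins, 31 encode small (40S) subunit proteins and 3 encode the stalk proteins Rplp0, Rplp1 and Rplp2. The other 7 are paralogs, additional gene copies named after a ribosomal protein gene. The transcript used here for the paralog Rps4l has no annotated coding sequence.

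The Tregs were of the strain B6 Foxp3-DTR/GFP, in which the Foxp3 gene drives a diphtheria toxin receptor and a green fluorescent protein; the labels mention no toxin. They came from tumor-free CD45.1- mice that had been surgically joined for 14 days to CD45.1+ mice carrying EG7.1.15 tumor cells, injected intraperitoneally, so that both animals shared blood. Omental tumors and spleens were taken from the tumor-bearing animal at day 14 after injection. Partner-derived cells were sorted from them as live CD45.1- CD45.2+ B220- CD4+ CD25+ cells positive for the Foxp3 reporter. Omental tumor Tregs of mouse 2 and mouse 3 gave 1 RNA-seq library each, and spleen Tregs of the same 2 mice gave 1 each, so every comparison rests on 2 libraries per tissue. Only partner-derived cells were measured, and no library of Tregs from a tumor-free animal was analysed here.

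A ribosome is built from ribosomal RNA and a fixed set of proteins, nearly all present in a single copy per particle, so their genes are expressed together at high levels. Growth signals through mTOR act mainly on the translation of their mRNAs, which in vertebrates start with a C and a run of pyrimidines at the 5′ end, the terminal oligopyrimidine tract. Activated T cells raise ribosome production before they divide. The mouse genome holds many processed pseudogenes of these genes, so a read from a ribosomal protein mRNA often matches several places.

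The start sites of 6 members show what such a tract looks like in genes that are referred to again below. Each sequence runs 5′ to 3′ from 30 bases before the annotated start through the first 20 transcribed bases, on the gene's own strand, and is taken from RefSeq on GRCm38.p6. Capitals mark the longest unbroken run of C and T that reaches into the 20 bases on either side of the start. The first 3 carry the tract at the annotated start itself; Rps27l, Rpl4 and Rpl7l1 do not, and they are shown because the first had the highest omental over spleen fold of the 79 members tested, the second is a long, abundant large subunit gene, and the last had the lowest fold.
Rpl38: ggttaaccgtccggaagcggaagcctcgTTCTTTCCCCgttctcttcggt
Rpl35: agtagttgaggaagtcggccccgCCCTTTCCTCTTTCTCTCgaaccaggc
Rps6: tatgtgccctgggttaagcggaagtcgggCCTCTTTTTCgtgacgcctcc
Rps27l: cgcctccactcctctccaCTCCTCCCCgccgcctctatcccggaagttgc
Rpl4: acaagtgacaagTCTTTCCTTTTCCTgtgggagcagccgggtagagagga
Rpl7l1: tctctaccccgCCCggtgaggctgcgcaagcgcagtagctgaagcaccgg

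These windows lie at chr11:114668550-114668599 on the plus strand for Rpl38, chr2:39005112-39005161 on the minus strand for Rpl35 and chr4:86857348-86857397 on the minus strand for Rps6. Those of the others are chr9:66946056-66946105 on the plus strand for Rps27l, chr9:64173357-64173406 on the plus strand for Rpl4 and chr17:46782637-46782686 on the minus strand for Rpl7l1. A C at the annotated start followed by at least 4 bases that are each C or T, searched on the sense strand only, was present in 13 of the 63 members found in the promoter table (20.6%) and in 813 of all 27025 genes in it (3.01%). A C or T run of at least 8 bases within 20 bases of the start was present in 30 of the 63 members (47.6%) and in 18.4% of all genes. The match depends on the annotated start, and a start placed a few bases away from the one used would not be counted.

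The libraries held 6660230 and 3764508 counts in genes for omental tumor Tregs of mouse 2 and mouse 3, and 9989005 and 13598631 for spleen Tregs. Reads that aligned to several places accounted for 33.5% and 49.9% of entries in the omental tumor files, against 30.2% and 28.0% in the spleen files. Rn45s, the ribosomal RNA precursor, took 1.14% and 4.86% of gene counts in omental tumor, against 1.23% and 0.798% in spleen. Across 16322 genes that passed the filter on low counts, the mouse 3 omental and spleen libraries had a Spearman correlation of 0.84 and the mouse 2 libraries one of 0.91, as a description across genes. Foxp3 was present in all 4 libraries at 81.1 and 84.0 CPM in omental tumor, against 113 and 144 CPM in spleen, where CPM is counts scaled to a common library size of 1e6 with TMM factors.

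The ribosomal protein genes together took 2.85% and 7.08% of gene counts in the omental tumor libraries of mouse 2 and mouse 3, against 3.50% and 3.95% in the spleen libraries. The 95% Clopper-Pearson intervals ran from 2.84% to 2.86% and from 7.05% to 7.10% for omental tumor, and from 3.49% to 3.51% and from 3.94% to 3.96% for spleen; they cover counting error only, since PCR copies are not independent molecules. The omental library of mouse 3 held the highest share of the 4 libraries and that of mouse 2 the lowest, so the spleen shares lay between the omental ones. The share in omental tumor was 0.813 times that in spleen in mouse 2 and 1.79 times that in spleen in mouse 3. The large subunit genes had ratios of 0.816 in mouse 2 and 1.80 in mouse 3, the small subunit genes 0.782 and 1.80, and the stalk genes 0.977 and 1.61. With 2 libraries per tissue an exact two-sided permutation test cannot give a p under 1 in 3. In bulk libraries a lower number of cells with these mRNAs and less mRNA per cell cannot be told apart.

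In the comparison of tissues across both mice, no ribosomal protein gene of the 79 tested passed an adjusted p of 0.05 in edgeR's quasi-likelihood test, against 233 of all 16322 tested genes (1.43%), 190 of them higher in omental tumor (1.16%) and 43 lower (0.263%). DESeq2 and limma-voom also called 0 members, against 358 and 163 of all 16322 genes. With library gene totals alone edgeR's test called 0 members as well, against 0.172% of all genes. At an unadjusted p under 0.05, 1 member passed, Rps27l, against 10.2% of all genes. The lowest adjusted p of any member in this edgeR test was 0.456. The members' log2 fold changes, omental tumor over spleen, had a median of 0.24 with an interquartile range of 0.032 to 0.43, beside a median of 0.13 for all tested genes. Their SD was 0.33, against 1.22 over all genes, which were not matched to the members for level. A positive fold change was found for 62 of the 79 members, against 53.9% of all genes. The standard errors of the members ran from 0.73 to 1.28, and the smallest absolute fold change called for any gene was 2.64 on the log2 scale, so a difference of the size seen in the members was not detectable with 2 libraries per tissue.

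Scaling moved these medians for all genes together. The median of all tested genes was 0.13 with TMM factors, 0.25 with RLE factors, 0.62 with upper-quartile factors and 0.39 with library gene totals alone. Relative to it the members' median lay 0.12, 0.21, 0.20 and 0.11 higher. The sign of the members' median was positive under each of these scalings, and with mouse as a block it was 0.061, beside 0.088 for all genes. Its place relative to all genes changed with the tool and the filter. The members' median was 0.064 with limma-voom, beside 0.13 for all genes, and 0.11 with no filter on low counts, beside 0.25. With a minimum count of 50 it was 0.84, beside 0.18 for all genes. It rested on single libraries, being -0.80 when the omental library of mouse 3 was left out and 0.80 when that of mouse 2 was, and 0.95 when the spleen library of mouse 3 was left out and -0.042 when that of mouse 2 was.

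**Figure D1:**
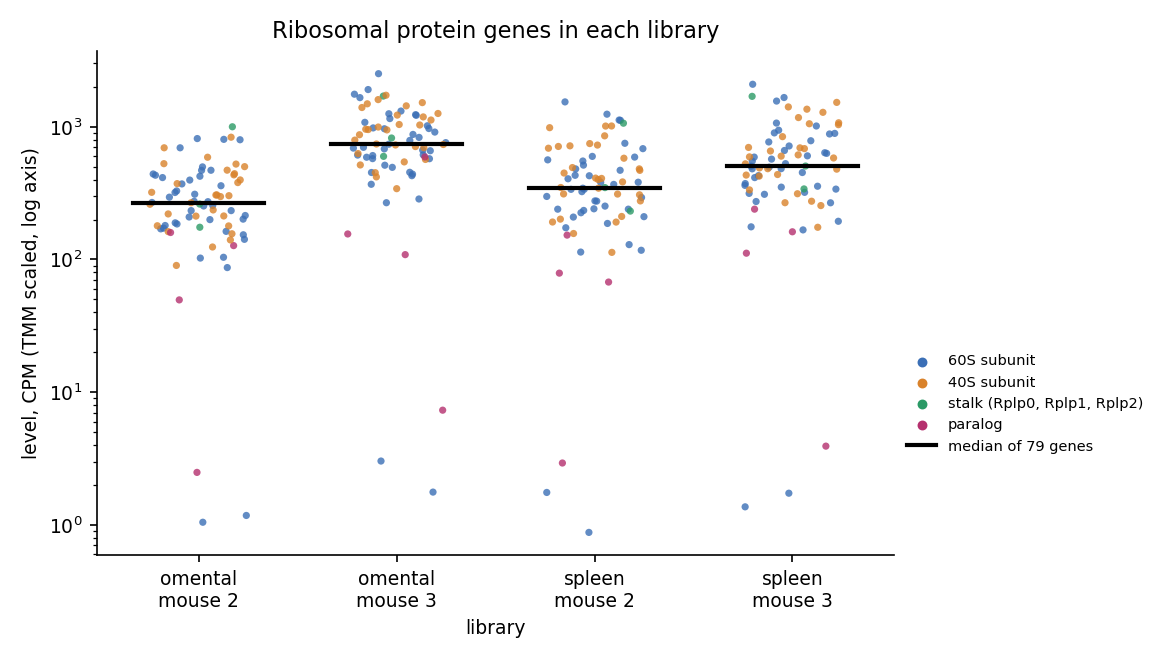
Level of each of the 79 tested ribosomal protein genes in each library, in CPM on a log axis, coloured by role, with omental tumor libraries on the left, spleen libraries on the right and a black bar at the median. The median bar stands at 268 and 742 CPM in the omental tumor libraries of mouse 2 and mouse 3 and at 348 and 506 CPM in the spleen libraries, and the few points under 10 CPM are Rpl30, Rpl34 and the paralog Rps4l.

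Of the 42 large subunit genes tested, 35 had omental tumor below spleen in mouse 2 and above it in mouse 3, against 14.9% of all tested genes. Rpl13, an abundant large subunit protein, had 694 and 1907 CPM in omental tumor, against 1244 and 942 CPM in spleen. Its omental libraries were the lowest and the highest of the 4, so the tissues overlapped.

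Rpl38, a small protein of the large subunit whose loss in mice alters the translation of Hox mRNAs, had 163 and 607 CPM in omental tumor against 187 and 273 CPM in spleen. Its log2 fold change was 0.74 ± 0.80 (SE, n = 2 per tissue; adjusted p = 0.759 in edgeR's quasi-likelihood test). Rpl35, which sits near the exit of the nascent peptide tunnel, had 328 and 1314 CPM in omental tumor, against 431 and 637 CPM in spleen, with a fold of 0.62 ± 0.89 on the log2 scale (SE, adjusted p = 0.811 in the same edgeR test). For both, the omental library of mouse 3 was the highest and that of mouse 2 the lowest, and the fold changes were smaller than their errors. Without the omental library of mouse 3 they were -0.59 for Rpl38 and -0.79 for Rpl35.

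Rpl3 and Rpl4, large subunit proteins of early assembly, stood at the other end. Rpl3, which lies close to the peptidyl transferase centre, had 815 and 1153 CPM in omental tumor against 1124 and 1661 CPM in spleen. Rpl4 had 798 and 1220 CPM in omental tumor, against 1118 and 1562 CPM in spleen. Each was lower in omental tumor than in the spleen of the same mouse in both mice, but the groups overlapped, since the omental library of mouse 3 exceeded the spleen library of mouse 2. The log2 fold changes were -0.50 ± 0.99 for Rpl3 and -0.41 ± 0.98 for Rpl4 (SE, adjusted p = 0.863 and 0.889, edgeR's quasi-likelihood test), and they were 0.050 and 0.14 with upper-quartile factors.

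Rpl5 and Rpl11 join 5S ribosomal RNA in a particle that binds Mdm2 and stabilizes p53 when ribosome assembly fails. Rpl5 had 469 and 966 CPM in omental tumor, against 427 and 663 CPM in spleen. Rpl11 had 172 and 452 CPM in omental tumor, against 234 and 373 CPM in spleen. Rpl5 was higher in omental tumor in both mice and Rpl11 in mouse 3 alone, with overlapping groups for both genes.

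Of the 30 small subunit genes tested, 27 were lower in omental tumor in mouse 2 and higher in mouse 3. Rps2, which lines the mRNA entry channel, had 524 and 1259 CPM in omental tumor against 689 and 479 CPM in spleen. It was 1 of 3 tested members, with Rpl13 and Rpl34, that were lower in the spleen of mouse 3 than in that of mouse 2, and its log2 fold change was 0.61 ± 0.91 (SE, adjusted p = 0.817 in edgeR's quasi-likelihood test). Rps27a, made as a fusion with ubiquitin, had 373 and 1225 CPM in omental tumor, against 410 and 614 CPM in spleen, with a fold of 0.64 ± 0.89 on the log2 scale (SE, adjusted p = 0.802 in that test). In both genes the mouse 3 omental library alone stood above the rest, and without it the log2 fold changes were -0.24 for Rps2 and -0.55 for Rps27a.

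Rps19, needed to mature the 3′ end of 18S ribosomal RNA and mutated in Diamond-Blackfan anemia in humans, had 443 and 1437 CPM in omental tumor against 1013 and 1357 CPM in spleen. The omental library of mouse 2 was far below the others and that of mouse 3 was level with the spleen of the same mouse. The log2 ratio was -1.19 in mouse 2, the lowest of any tested member there, and 0.083 in mouse 3. The log2 fold change over both mice was -0.33 ± 0.96 (SE, adjusted p = 0.908 in edgeR's quasi-likelihood test), and it was 0.26 with upper-quartile factors and 0.27 without the omental library of mouse 2.

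Rps3, at the mRNA entry channel and also known as a DNA repair and NF-κB partner, had 501 and 1040 CPM in omental tumor against 711 and 1072 CPM in spleen. Rps3a1 had 694 and 1397 CPM in omental tumor, against 984 and 1411 CPM in spleen. Rps6, the substrate of S6 kinase downstream of mTOR, had 589 and 1124 CPM in omental tumor, against 747 and 1173 CPM in spleen. In mouse 2 these 3 genes were lower in omental tumor, and in mouse 3 both tissues had nearly the same level. The log2 fold changes were -0.21 for Rps3 and -0.20 for Rps3a1 (adjusted p = 0.941 and 0.949, edgeR's quasi-likelihood test), and with library gene totals alone they were 0.067 and 0.078.

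The stalk proteins recruit elongation factors to the large subunit. Rplp0, the base of the stalk, had 1000.05 and 1703 CPM in omental tumor, against 1064 and 1695 CPM in spleen. Rplp1 had 262 and 823 CPM in omental tumor, against 348 and 506 CPM in spleen. Rplp2, the partner of Rplp1, had 175 and 599 CPM in omental tumor, against 232 and 340 CPM in spleen. Rplp0 was nearly level between the tissues of each mouse, whereas Rplp1 and Rplp2 were lower in omental tumor in mouse 2 and higher in mouse 3. Rpsa, a small subunit protein also known as a laminin receptor, had 835 and 1728 CPM in omental tumor, against 1014 and 1527 CPM in spleen, again with the omental libraries at both ends.

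The ratio of omental tumor to spleen therefore differed in sign between the mice for most members. In mouse 2 the members' median log2 ratio was -0.41, and 5 of 79 were higher in omental tumor, against 53.4% of all tested genes. In mouse 3 the median was 0.57, and 72 of 79 were higher in omental tumor, against 51.8% of all genes. Of the 79, 67 were lower in omental tumor in mouse 2 and higher in mouse 3, against 14.9% of all genes. The all-gene medians were 0.070 in mouse 2 and 0.091 in mouse 3. Taking each gene's ratio in mouse 3 minus that in mouse 2, the median was 1.05 for the members and -0.087 for all tested genes. With 1 library for each tissue and mouse, this difference between mice was not tested.

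The members' median was negative in mouse 2 and positive in mouse 3 under each scaling. With library gene totals alone 11 members were higher in omental tumor in mouse 2, against 60.4% of all tested genes, and 77 in mouse 3, against 59.6%. The members' medians were then -0.25 in mouse 2 and 0.95 in mouse 3, and with upper-quartile factors -0.12 and 1.29. With upper-quartile factors 25 members were higher in omental tumor in mouse 2, against 66.5% of all genes, and 78 in mouse 3, against 65.8%. Relative to the all-gene median of the same scaling, the members lay between -0.48 and -0.47 in mouse 2 and between 0.48 and 0.53 in mouse 3. A scaling factor moves all genes of a library together, so these distances could barely change. The count of members split in this way was 54 with upper-quartile factors, against 14.6% of all genes, and 66 with library gene totals alone, against 15.2%.

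Single libraries lay at the extremes. The omental library of mouse 3 was the highest of the 4 for 72 of 79 members, against 19.8% of all tested genes, and the omental library of mouse 2 was the lowest for 72, against 13.8% of all genes. With library gene totals alone these counts were 77, against 21.6% of all genes, and 64, against 9.32%. On the TMM scale, for no member were both omental libraries above both spleen libraries, an arrangement found for 16.4% of all genes, and the same was true with RLE factors, against 21.5%. With library gene totals alone this held for 3 members, Rpl5, Rpl7a and Rps27l, against 21.6% of all genes, and with upper-quartile factors for 2, Rpl7a and Rps27l, against 30.5%. For 1 member, Rpl7l1, both were below on the TMM scale, against 25.4% of all genes, and with library gene totals alone, against 19.0%; with upper-quartile factors there was none, against 14.9%. The spleen libraries also differed, with 76 of 79 members higher in the spleen of mouse 3, against 46.3% of all tested genes. The median log2 ratio, mouse 3 over mouse 2, was 0.58 for the members in spleen, beside -0.15 for all genes, and 1.56 for the members in omental tumor, beside -0.63 for all genes. The members had an SD of the log2 ratio of 0.30 in mouse 2 and 0.43 in mouse 3, against 0.99 and 1.74 over all tested genes. All tested genes reach down to the filter on low counts and were not matched to the members for level.

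**Figure D2:**
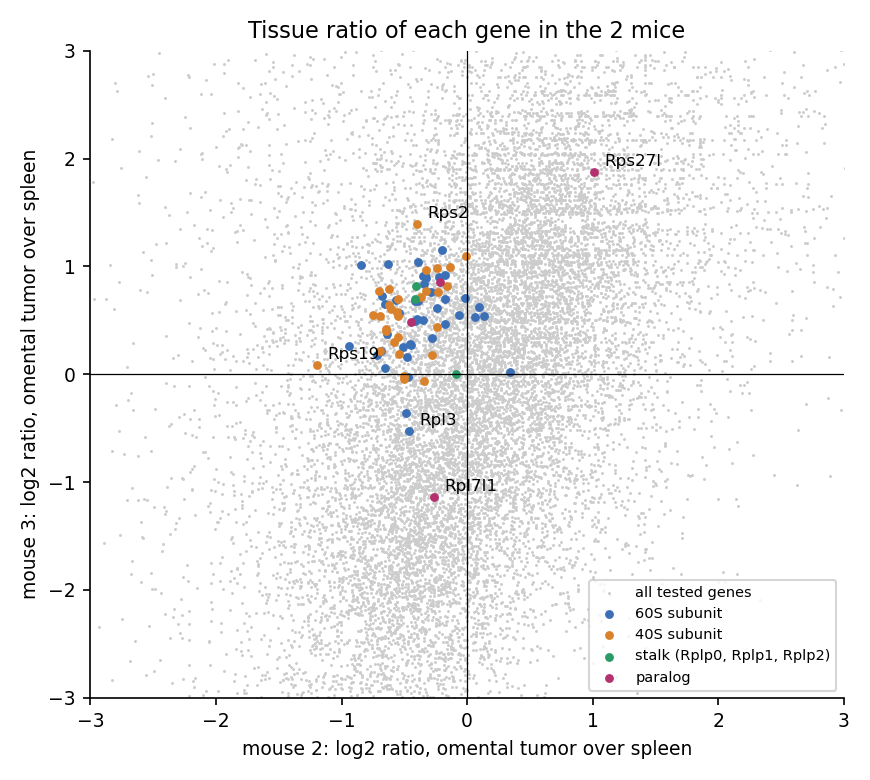
Log2 ratio of omental tumor over spleen for each gene in mouse 2 (x axis) and mouse 3 (y axis), with ribosomal protein genes coloured by role and all tested genes in grey; genes beyond 3 on either axis are not drawn. Of the 79 members, 67 sit at the upper left, while Rps27l is at 1.01 and 1.87 and Rpl7l1 at -0.26 and -1.14.

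On the TMM scale few members lay outside that arrangement. Those higher in omental tumor in both mice were Rpl10, Rpl30, Rpl5, Rpl7a and Rps27l, 5 of 79 against 36.9% of all tested genes. Those lower in both mice were Rpl3, Rpl4, Rpl7, Rpl7l1, Rps3, Rps3a1 and Rps6, 7 of 79 against 31.7% of all genes. With library gene totals alone the counts were 11 higher in both mice, against 44.4% of all genes, and 2 lower, Rpl3 and Rpl7l1, against 24.4%. With upper-quartile factors they were 24, against 51.1%, and 0, against 18.9%. Rpl7a, a large subunit protein, had 256 and 495 CPM in omental tumor, against 239 and 320 CPM in spleen. Rpl10, which forms part of the tRNA site of the large subunit, had 424 and 912 CPM in omental tumor, against 406 and 630 CPM in spleen. Apart from Rpl7l1, the tissues overlapped in all of these genes on the TMM scale, and Rpl30 had at most 19 counts in any library.

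Among the paralogs, Rps27l stood furthest from the other members. It encodes a form of Rps27 (eS27) and is known as a p53 target that modulates p53 stability. The gene lies at chr9:66946086-66949516 on the plus strand (GRCm38, GENCODE vM21), with no exon overlapping another annotated gene. It had 160 and 593 CPM in omental tumor, against 78.9 and 162 CPM in spleen, which is a mean of 376 ± 306 CPM in omental tumor, against 120 ± 58.5 CPM in spleen (SD, n = 2 each). Within each mouse the omental library was the higher, by 1.01 in mouse 2 and 1.87 in mouse 3 on the log2 scale. Between mice the groups just overlapped on the TMM scale, and with library gene totals alone, at 183 and 624 CPM in omental tumor against 81.0 and 130 CPM in spleen, they did not. The log2 fold change was 1.64 ± 0.80 (SE, n = 2 per tissue; unadjusted p = 0.0393, adjusted p = 0.456, edgeR's quasi-likelihood test), and with a library left out it lay between 0.32, without omental tumor of mouse 3, and 2.68, without spleen of mouse 3. With mouse as a block it was 1.45 (adjusted p = 0.393). Under the other scalings, filters and tools it was 1.46 to 2.28 and past the adjusted threshold in none.

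Rpl7l1, a paralog of Rpl7 with a role in early large subunit assembly, lies at chr17:46773907-46782672 on the minus strand, with no annotated exon overlap. It had 127 and 109 CPM in omental tumor, against 153 and 239 CPM in spleen, a mean of 118 ± 13.0 CPM in omental tumor, against 196 ± 61.3 CPM in spleen (SD, n = 2 each). It was the tested member whose tissues did not overlap on the TMM scale, an arrangement lost with upper-quartile factors, and the log2 fold change of -0.73 ± 0.75 was smaller than its error (SE, adjusted p = 0.747, edgeR's quasi-likelihood test). It was -0.21 with upper-quartile factors, and with a library left out it lay between -1.08, without spleen of mouse 2, and -0.13, without spleen of mouse 3. Its parent Rpl7 had 431 and 876 CPM in omental tumor, against 598 and 891 CPM in spleen. The log2 ratio of Rpl7l1 to Rpl7, a ratio of counts not corrected for length, was -1.76 and -3.01 in omental tumor, against -1.97 and -1.90 in spleen, so the omental library of mouse 3 stood apart from 3 libraries close together.

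Rpl22l1, whose protein replaces Rpl22 in part, and Rpl22, which is needed for the development of αβ T cells in mice, had the same order of libraries. Rpl22l1 had 49.6 and 156 CPM in omental tumor, against 67.6 and 112 CPM in spleen, and the fold was 0.19 ± 0.73 on the log2 scale (SE, adjusted p = 0.931, edgeR's quasi-likelihood test). Rpl22 had 86.9 and 268 CPM in omental tumor, against 114 and 167 CPM in spleen. The log2 ratio of Rpl22l1 to Rpl22 was -0.81 and -0.78 in omental tumor, against -0.75 and -0.58 in spleen, a spread smaller than that of either gene alone. An exon of Rpl22l1 overlaps Gm33051 on the opposite strand, and their reads cannot be told apart in libraries that do not mark strand.

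**Figure D3:**
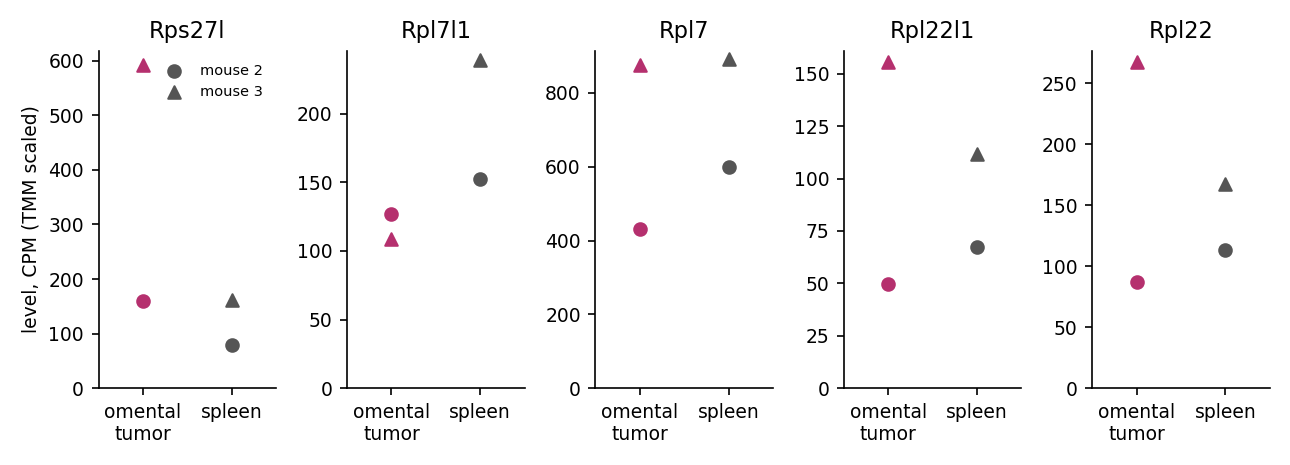
Levels in CPM of the paralogs Rps27l, Rpl7l1 and Rpl22l1 and of the parent genes Rpl7 and Rpl22, with omental tumor on the left and spleen on the right of each panel, circles for mouse 2 and triangles for mouse 3. In Rps27l the omental point of each mouse lies above the spleen point of that mouse, at 160 against 78.9 CPM and 593 against 162 CPM, and in Rpl7l1 both omental points lie below both spleen points.

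The remaining paralogs were at or near the limit of detection. Rps4l had 19 and 29 counts in omental tumor, against 30 and 43 in spleen, and its parent Rps4x had 380 and 947 CPM in omental tumor, against 448 and 699 CPM in spleen. The log2 fold change of Rps4l was 0.46 ± 1.05 (SE, adjusted p = 0.885, edgeR's quasi-likelihood test). Rpl39l, known for its expression in male germ cells, had 26 and 3 counts in omental tumor, against 8 and 15 in spleen. Rpl10l, a testis form that replaces the X-linked Rpl10, had 4 and 0 counts in omental tumor, against 3 and 2 in spleen. Rpl3l, the form of striated muscle, had 3 and 1 counts in omental tumor, against 0 in both spleen libraries. The last 3 genes did not pass the filter on low counts, and a count of 0 allows up to 3 counts. Scaled by library gene totals alone, without TMM factors, 3 counts are 0.797 CPM for omental tumor of mouse 3, against 0.3003 and 0.221 CPM for spleen.

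Some core genes that every ribosome needs were almost without counts in all 4 libraries. Rpl26 had 0 counts in each, and Rps27 had 6 and 11 counts in omental tumor against 8 and 12 in spleen. These too did not pass the filter. Rpl30 had 9 and 7 counts in omental tumor, against 9 and 19 in spleen, and Rpl34 had 8 and 12 counts in omental tumor, against 18 and 15 in spleen. Because Rpl26, Rps27, Rpl30 and Rpl34 are part of every cytosolic ribosome, these values are not read as absence of their mRNAs. Between 28.0% and 49.9% of the alignments in each file were not unique and carried no gene, and the 7 pseudogene entries left out by the rule held 144 and 198 counts in omental tumor, against 272 and 289 in spleen; the part of either in these low counts was not tested. The ratio of Rps27l to its parent Rps27 is not given for this reason, and whether reads of Rps27 were counted for its near-identical copy was not tested. Of the 84 genes, 19 have an exon that overlaps another gene on the opposite strand, among them Rpl5, Rpl35, Rps2 and Rps27a.

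The members encode short transcripts, with a median length of 705 bases against 1930 bases for all genes in the files, from the shortest principal transcript of each gene. Within the 79 tested members the log2 ratio of omental tumor to spleen followed length in mouse 3 and not in mouse 2. The Spearman correlation across members was -0.48 with transcript length and -0.59 with coding length (78 members with a value) in mouse 3, and 0.060 and 0.081 in mouse 2; genes of the same pair of libraries are not independent replicates. In mouse 3 the median log2 ratio was 0.81 for the 19 members of up to 500 bases, 0.51 for 43 members of over 500 to 1000 bases and 0.18 for 15 members of over 1000 to 2000 bases. In mouse 2 it was -0.35, -0.44 and -0.46.

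Other genes of at least 100 CPM on average were also ordered by length in mouse 3. Their median log2 ratios there were 0.83 for 44 genes of up to 500 bases, 0.45 for 253 genes of over 500 to 1000 bases and -0.40 for 588 genes of over 1000 to 2000 bases, and they reached -1.74 for 453 genes of over 4000 bases. The members of mouse 3 thus had values close to those of other abundant genes of their length up to 1000 bases. In mouse 2 the medians of the same other genes were 0.021, -0.014 and -0.092, above those of the members. With a length trend taken out of each library, the members' median was 0.13 in mouse 3, beside 0.014 for all genes. There 51 of 79 members were higher in omental tumor. In mouse 2 the members' median was -0.45, beside 0.067 for all genes, with 5 members higher. The median log2 fold change over both mice was then -0.11 for the members, beside 0.074 for all genes.

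**Figure D4:**
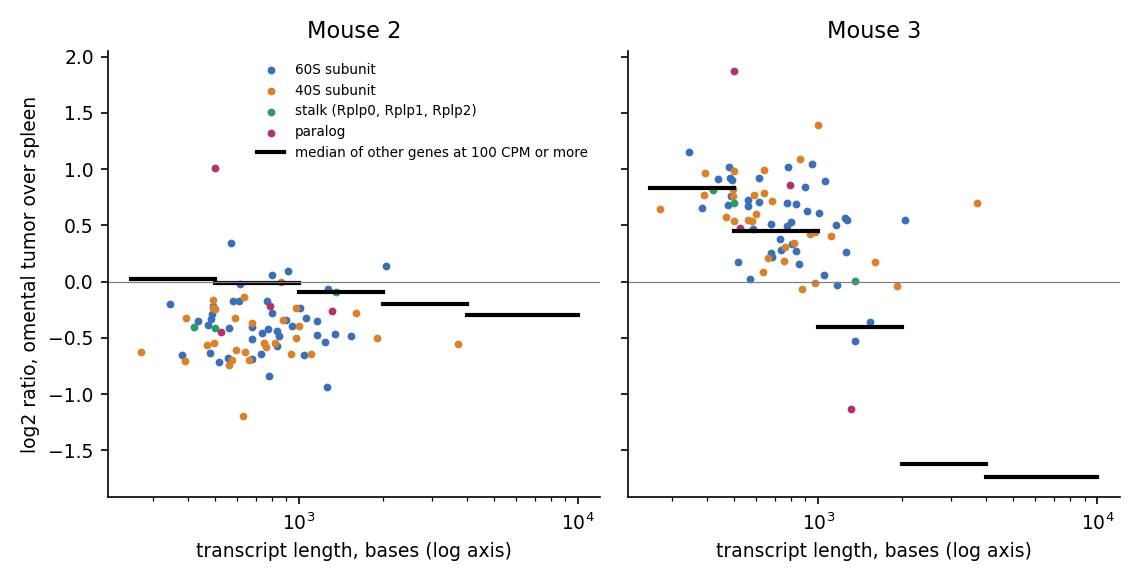
Log2 ratio of omental tumor over spleen for each tested ribosomal protein gene against transcript length in bases on a log axis, in mouse 2 (left) and mouse 3 (right), coloured by role; black bars give the median of other genes of at least 100 CPM in each length class. In mouse 3 the bars step down from 0.83 to -1.74 and members of up to 1000 bases lie around them, and in mouse 2 most members lie below bars of 0.021 to -0.29.

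The members were also set side by side by the pyrimidine tract at the annotated start. The 12 tested members that carry it, such as Rpl38, Rpl35 and Rps6 shown above, had a median log2 ratio of -0.33 in mouse 2 and 0.74 in mouse 3. The 46 tested members in the promoter table without it had -0.42 and 0.54. Rps6, with the tract, and Rpl4, whose pyrimidine run lies before the start, were both lower in omental tumor in both mice on the TMM scale.

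Other genes of the translation machinery were described by lists of named genes, without a test of a list. No gene of these lists passed an adjusted p of 0.05 in edgeR's quasi-likelihood test. The 77 mitochondrial ribosomal proteins, which build the separate ribosome of mitochondria, took 0.345% and 0.734% of gene counts in omental tumor, against 0.325% and 0.387% in spleen. Their median log2 ratio was -0.040 in mouse 2 and 0.57 in mouse 3, so that in mouse 3 it equalled that of the cytosolic set and in mouse 2, where the cytosolic set was at -0.41, it lay near 0 and was 0.12 with library gene totals alone. The 10 host genes of small nucleolar RNAs, among them Gas5, a non-coding RNA that also carries the tract, had medians of 0.069 in mouse 2 and 0.73 in mouse 3.

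Several lists of translation and assembly factors lay below the all-gene median in mouse 3. The median log2 ratio of 12 elongation factor genes was -0.14 in mouse 2 and 0.16 in mouse 3, and that of 31 tested initiation factor genes was -0.030 and -0.52. The 46 ribosome assembly genes had medians of 0.068 and -0.63, the 15 RNA polymerase I genes, which make the ribosomal RNA precursor, -0.32 and -0.63, and the 20 genes of the mTOR and Myc axis -0.38 and -0.69. With upper-quartile factors the initiation, assembly, RNA polymerase I and mTOR and Myc medians of mouse 3 were 0.21, 0.096, 0.094 and 0.030, and their distances to the median of all genes then ran from -0.73 to -0.55. With library gene totals alone the elongation and initiation medians of mouse 2 were 0.023 and 0.13. Eef1a1, the elongation factor that delivers tRNA and whose mRNA carries a tract like that of ribosomal proteins, had 2811 and 2582 CPM in omental tumor, against 3789 and 5424 CPM in spleen. Npm1, a nucleolar assembly factor, had 625 and 1294 CPM in omental tumor, against 455 and 756 CPM in spleen, and was higher in omental tumor in both mice. Myc, which drives ribosomal genes, had 187 and 130 CPM in omental tumor, against 197 and 241 CPM in spleen. The lists with the lowest medians in mouse 3 had median transcript lengths of 1472 to 4229 bases, against 729 bases for the 79 members, and the part of length in their order was not tested.

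**Figure D5:**
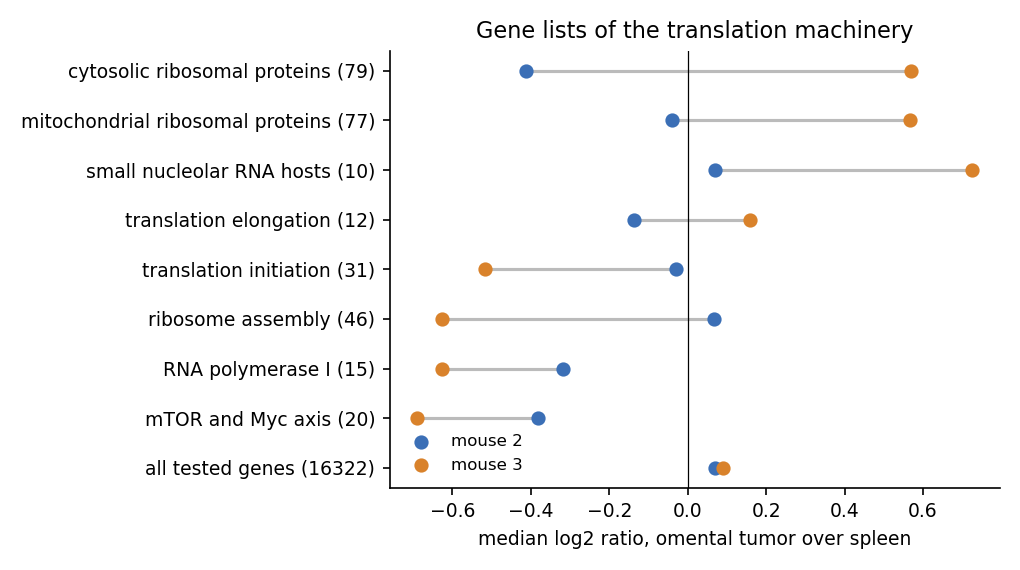
Median log2 ratio of omental tumor over spleen of each gene list in mouse 2 (blue) and mouse 3 (orange), with the number of tested genes in brackets. The cytosolic ribosomal proteins are at -0.41 in mouse 2 and at 0.57 in mouse 3, while the lists for initiation, assembly, RNA polymerase I and the mTOR and Myc axis lie below 0 in mouse 3 on this TMM scale.

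Markers of other cells and early response genes differed between libraries as well. The 4 neutrophil markers found in the files, led by S100a9, had a summed level of 33.1 and 1198 CPM in omental tumor of mouse 2 and mouse 3, against 39.99 and 22.3 CPM in spleen. S100a9 had 1.57 and 474 CPM in omental tumor, against 9.07 and 7.48 CPM in spleen, so the omental library of mouse 3 alone was high. All 4 passed the adjusted threshold in edgeR's test of tissue alone and none with mouse as a block (adjusted p = 0.637 for S100a9) or with library gene totals alone (adjusted p = 0.310). The 5 fibroblast markers summed to 168 and 13.9 CPM in omental tumor, against 11.996 and 6.47 CPM in spleen. Of these, 1 passed the adjusted threshold in edgeR's test of tissue alone, Col3a1 (adjusted p = 0.000426). It did not pass with mouse as a block (adjusted p = 0.176 in the same test). The 4 hemoglobin genes were at 0 in every library. The 10 early response genes, listed for sample handling, summed to 1700 and 2044 CPM in omental tumor, against 996 and 220 CPM in spleen. Handling of the sample and a response of the cells in the tissue cannot be told apart in them. The 5 T lineage markers summed to 2453 and 3706 CPM in omental tumor, against 3796 and 6292 CPM in spleen, and Cd4, which the sort required, had 375 and 114 CPM in omental tumor, against 566 and 1004 CPM in spleen. The 6 macrophage and monocyte markers summed to 399 and 501 CPM in omental tumor, against 145 and 285 CPM in spleen, most of the difference being Lyz2, at 249 and 296 CPM in omental tumor, against 6.83 and 61.6 CPM in spleen. Without Lyz2 they summed to 149.9 and 205 CPM in omental tumor, against 138 and 223 CPM in spleen, and Csf1r, at 38.6 and 14.4 CPM in omental tumor, against 69.6 and 109 CPM in spleen, ran the other way. Lyz2 passed the adjusted threshold in edgeR's test of tissue alone (adjusted p = 0.0194) and with mouse as a block (adjusted p = 0.0346). With library gene totals alone it did not (adjusted p = 0.164 in edgeR's test). The 3 genes listed as T lymphoma markers, Rag1, Rag2 and Dntt, summed to 32.8 and 28.3 CPM in omental tumor, against 15.4 and 4.83 CPM in spleen. Of these, Dntt had 21.9 and 21.2 CPM in omental tumor, against 7.51 and 3.83 CPM in spleen (adjusted p = 0.419, edgeR's quasi-likelihood test). The 4 B cell markers summed to 78.4 and 23.7 CPM in omental tumor, against 46.7 and 49.5 CPM in spleen. The omental library of mouse 3 thus had the highest ribosomal protein share, the highest neutrophil sum, the highest share of non-unique alignments and the highest Rn45s share of the 4 libraries. The omental library of mouse 2 had the lowest ribosomal protein share and the highest fibroblast sum. Entries outside every annotated gene made up 48.9% of its file and 44.2% of the spleen file of mouse 2. In mouse 3 they made up 27.3% of the omental tumor file and 24.8% of the spleen file. Counts in genes made up 17.1% and 22.2% of entries in omental tumor of mouse 2 and mouse 3, against 24.9% and 46.0% in spleen. The part of each of these in the ribosomal protein values was not tested.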

How the data were processed

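The submitters' processing notes name mm10 and the tools TopHat2, HTSeq, SAMtools and Trim Galore; versions, annotation and strandedness were not given in the sources used here. Per the labels' protocols, total RNA went through SMART-seq v4 and Nextera XT, which do not mark strand. The deposited values are raw counts per gene symbol in 1 file per library; 5 summary entries that name no gene were left out. Of their shares, only those of non-unique alignments and of entries outside every annotated gene are given, as the files list them.

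Genes were filtered with filterByExpr at a minimum count of 10 and tested with edgeR 4.0.16 in R 4.3.3 (TMM, quasi-likelihood test, tissue alone, 2 residual degrees of freedom, Benjamini-Hochberg adjustment over all 16322 genes at 0.05). The prior degrees of freedom were infinite, so the SE, the absolute log2 fold change over the square root of F, does not measure a gene's own spread. Ratios within a mouse are differences of log2 CPM with a prior count of 2. Alternatives used limma 3.58.1, DESeq2 1.42.0, other scalings and filters, and lowess trends on length and GC content (span 0.3), the last 2 added after seeing the data. Same-numbered libraries come from the same mouse per the labels, and their deviations from the tissue means correlated at 0.23. Fits were tested on simulated data. Lengths are from GENCODE vM21.

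Named genes were members past the threshold, the 8 highest in mean CPM, the 6 highest and 6 lowest folds, stalk proteins and Rpsa, paralogs with parents, 7 with roles outside or in assembly of the ribosome, and the most abundant of each list, 2 of these genes being not reported here; Rpl7a, Rpl34, Rpl26, Rpl30 and Rn45s were named after their values were seen. The members and lists were chosen with earlier results of these data known.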

Additional observations from a re-analysis of the deposited data

Results flagged for a closer look

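The share of gene counts taken by ribosomal protein genes moved in opposite directions in the 2 mice. The log2 ratio of that share, omental tumor over spleen, was -0.30 in mouse 2 and 0.84 in mouse 3. With 1 library of each tissue per mouse, the difference between the mice was not tested.

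A signal outside the gene counts also set the omental libraries apart: alignments that were not unique made up 33.5% of the omental file of mouse 2 and 49.9% of that of mouse 3, above both spleen files at 30.2% and 28.0%. Its part in the ribosomal protein values was not tested.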

How the results depend on the processing

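No ribosomal protein gene passed the adjusted threshold under any alternative run. Pairing by mouse through the replicate block gave 263 genes called and changed no call of a member. All called genes numbered 28 with library gene totals alone, 0 with no filter on low counts, 0 with a minimum count of 50, 358 with DESeq2 (2848 adjusted p-values not given) and 60 to 273 with a library left out. At an unadjusted p under 0.05, 8.24% of genes passed with no filter and 10.6% with a minimum count of 50. With a library left out, list medians ran from -0.80 to 0.95 for the members, -0.50 to 1.05 for mitochondrial ribosomal proteins, -0.50 to 0.62 for elongation, -0.68 to 0.33 for initiation, -0.48 to 0.17 for assembly, -0.80 to -0.26 for RNA polymerase I, -0.93 to -0.36 for the mTOR and Myc axis and -0.12 to 1.12 for small nucleolar RNA hosts; a lone library was taken to vary as the other pair did. With upper-quartile factors those medians were 0.94 for mitochondrial ribosomal proteins, 0.68 for elongation, 0.24 for initiation, 0.28 for assembly, -0.12 for RNA polymerase I, -0.086 for the mTOR and Myc axis and 1.02 for small nucleolar RNA hosts. With a minimum count of 50 they were 0.95 for mitochondrial ribosomal proteins, 0.67 for elongation, 0.23 for initiation, -0.17 for RNA polymerase I, -0.12 for the mTOR and Myc axis and 1.04 for small nucleolar RNA hosts. With library gene totals alone they were 0.41 for elongation, -0.34 for RNA polymerase I and -0.29 for the mTOR and Myc axis. Signs turned for Rpl3 (0.050 with upper-quartile factors, 0.044 with a minimum count of 50), Rpl4 (0.14, 0.14), Rps19 (0.26, 0.27), Rps3 (0.37, 0.37, and 0.067 with totals) and Rps3a1 (0.38, 0.38, and 0.078 with totals), and for Rpl22l1 with the length trend removed (-0.21). With a library left out, folds ran from -0.94 to 1.01 for Rpl22l1, -0.86 to 0.12 for Rpl3, -0.79 to 1.36 for Rpl35, -0.59 to 1.47 for Rpl38, -0.84 to 0.17 for Rpl4, -1.08 to -0.13 for Rpl7l1, 0.32 to 2.68 for Rps27l, -1.51 to 0.31 for Rps19, -0.24 to 1.10 for Rps2, -0.55 to 1.37 for Rps27a, -0.92 to 0.48 for Rps3, -0.88 to 0.45 for Rps3a1 and -0.55 to 1.10 for Rps4l. Apart from scaling, fewer genes tested and fewer libraries, the cause was not tested. The members' shares moved little when the 3 genes with the largest share in any single library were left out of the totals. They were then 2.93% and 7.74% in omental tumor, against 3.61% and 4.07% in spleen. The lower depth of the omental library of mouse 3 limits low members most.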
